A study of Homo sapiens with 6 samples.

Results

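Translation initiation and elongation factors were compared between THP-1 cells depleted of RKIP and their vector control. THP-1 is a widely used human cell line derived from an acute monocytic leukaemia, and RKIP, the Raf kinase inhibitor protein, is the product of PEBP1. Expression was measured on Affymetrix Human Gene ST arrays, 3 per group, labelled as biological replicates. The RKIP shRNA group carried a hairpin against RKIP in the lentiviral vector psi-LVRU6GP, and the control group carried that vector empty, so the control expressed no unrelated hairpin. Both groups were selected and kept in 1.5 µg/mL puromycin, in medium with serum and antibiotics. The labels do not say whether replicates were separate transductions or repeat cultures, so the p-values reflect only how much these arrays differed, some of which may be technical. Members were taken by name: symbols beginning with EIF or EEF and a digit, plus 7 added symbols, without pseudogenes and antisense names. Of 41 matching names, 2 were dropped, which left 39 of the 14884 genes that could be tied to 1 symbol. The 4 EIF2 kinase genes and 2 EIF4EBP genes, which restrain initiation, were set apart, leaving 33 names. Of these, 31 encode factors, proteins that act on them or modifying enzymes. They still include genes of inhibitors, such as PDCD4 and PAIP2. The other 2 are EIF3J-DT, a long non-coding RNA gene, and EEF1AKMT4-ECE2, a read-through of a methyltransferase gene into a neighbour. Subunit genes of eIF2, eIF2B, eIF3 and eIF4G, and PABPC1, ETF1 and ABCE1, were not analysed here.

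Translation of most messenger RNAs begins when eIF4E binds the cap and, with eIF4G and the helicase eIF4A, recruits the small ribosomal subunit. The subunit carries initiator tRNA bound to eIF2, scans to a start codon under the control of eIF1 and eIF5, and is joined by the large subunit with the help of eIF5B. Elongation factors eEF1A and eEF2 then deliver aminoacyl-tRNA and move the ribosome along the message. Cells restrain initiation mainly by phosphorylating eIF2, through the EIF2AK kinases, and by sequestering eIF4E with the EIF4EBP proteins, which the kinase mTOR releases. Arrays measure RNA, so neither phosphorylation nor protein amounts are part of these data.

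The targeted gene was low in every RKIP shRNA array. PEBP1 read 9.52, 9.77 and 9.75 in control and 8.25, 8.18 and 8.24 in RKIP shRNA arrays (log2 values), and stood at 36.4% of the control level (95% interval 31.6% to 42.1%). Array medians lay between 4.06 and 4.10, and the median of all rows, 4.08, is used below as the line under which a gene is called dim. Arrays of a group correlated at r = 0.994 to 0.996 across genes, and arrays of different groups at 0.987 to 0.988. Among the 7 measured of 12 myelomonocytic markers, 6 rose and 0 fell, and their summed log2 value ran from 54.8 to 55.1 in control and from 61.3 to 62.1 in RKIP shRNA arrays. All 7 lay above 4.08 in both groups, but so did 3 of 3 measured T cell, 1 of 2 B cell, 3 of 5 epithelial and 1 of 1 erythroid markers, and 0 of 2 fibroblast markers, so this line does not set the labelled lineage apart. Summed values were 13.6 to 14.4 against 14.2 to 14.6 for 3 T cell markers, 10.8 to 11.0 against 10.3 to 10.5 for 2 B cell markers, and 23.5 to 24.0 against 23.5 to 23.9 for 5 epithelial markers. The 1 measured erythroid marker read 4.77 to 5.21 against 5.09 to 5.38, and 2 fibroblast markers summed to 5.75 to 5.94 against 6.50 to 6.87. In total 1 T cell and 1 fibroblast marker rose, and 1 B cell and 1 epithelial marker fell. The part of these shifts in the results below was not tested.

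Some translation factor genes rose and others fell. Of the 33 names, 9 were higher and 6 lower in RKIP shRNA cells (limma, Benjamini-Hochberg adjusted p under 0.05 over all genes), or 27.3% and 18.2%, and 18 did not pass. Over all genes tested the same rule called 10.0% higher and 10.2% lower, together 20.2%. Only 1 of the 33 names was dim in control cells, and among the 9667 genes at or above the median of all rows 14.5% were higher and 14.6% lower. The groups did not overlap for 26 of the 33 names, against 37.9% of all genes and 51.5% of those at or above the median of all rows. No test set the members against other genes. The median log2 change of the 33 names was 0.09, beside 0.02 for all genes, and their changes ran from -0.59 to 1.05. Without regard to sign, the median change of the 33 names was 0.31, beside 0.15 for all genes and 0.18 for genes at or above the median of all rows. The higher calls were EIF1AD, EIF5AL1, EIF4A3, EIF6, EEF1AKMT1, EIF5B, EIF5A2, EIF4E2 and EIF4E, and the lower calls PDCD4, EIF3J-DT, EIF1B, EIF1, EEF2 and EIF2D. Leaving out single arrays kept 7 of the 9 higher calls in all 6 fits but only 2 of the 6 lower ones, PDCD4 and EIF3J-DT. PDCD4 encodes an inhibitor of eIF4A, and EIF3J-DT is a long non-coding RNA gene. The lower count was 2 when RKIP shRNA replicate 1 was absent and 3 when control replicate 2 or control replicate 3 was absent. With a trended and robust prior it was 10. Calls over all genes moved too. With 1 array left out, the higher ones went from 1495 to between 963 and 1212. The lower ones went from 1515 to between 1018 and 1270, and were 1916 with the trended and robust prior.

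**Figure D1:**
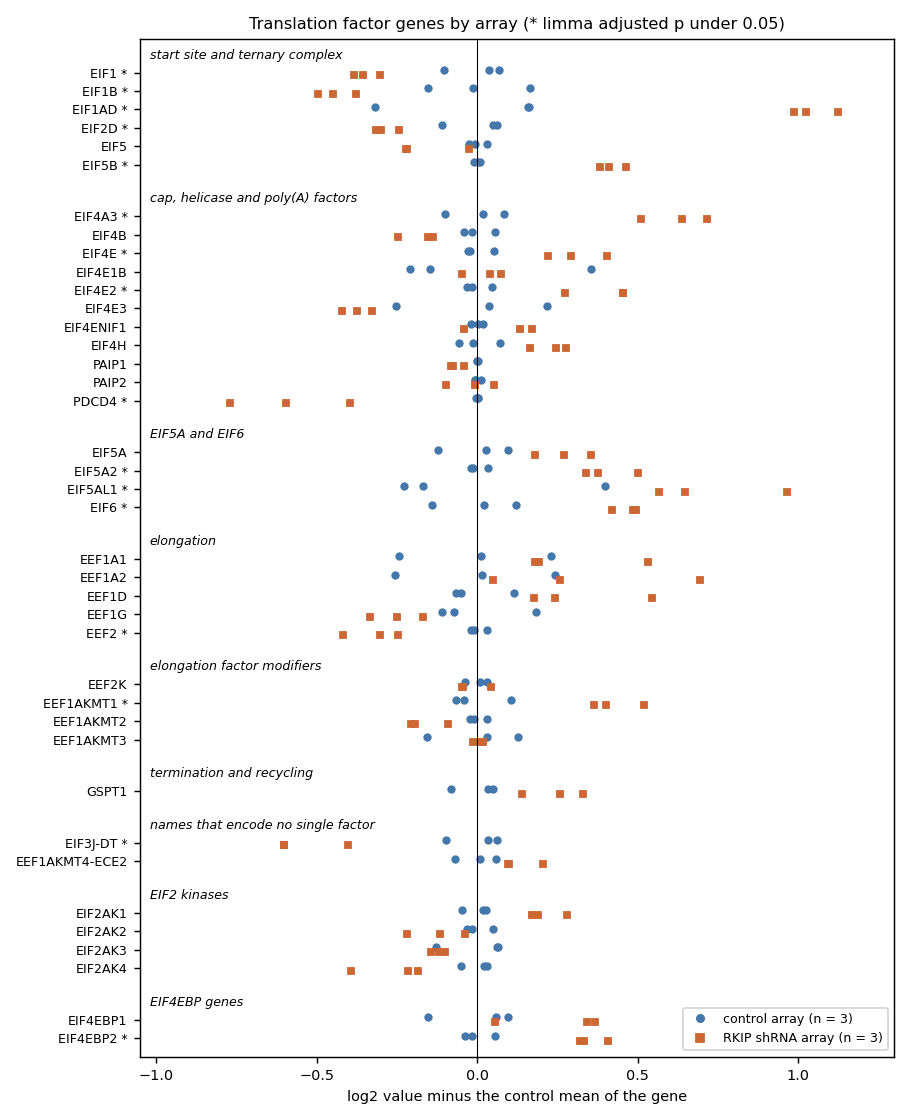
Each row is a gene, and each point an array, as its log2 value minus the control mean of that gene, for control (circles, n = 3) and RKIP shRNA (squares, n = 3); a star marks an adjusted p under 0.05 in limma. EIF1AD lies farthest to the right and PDCD4 farthest to the left, with changes of 1.05 and -0.59, and all 4 genes of the EIF5A and EIF6 group lie to the right.

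**Figure D2:**
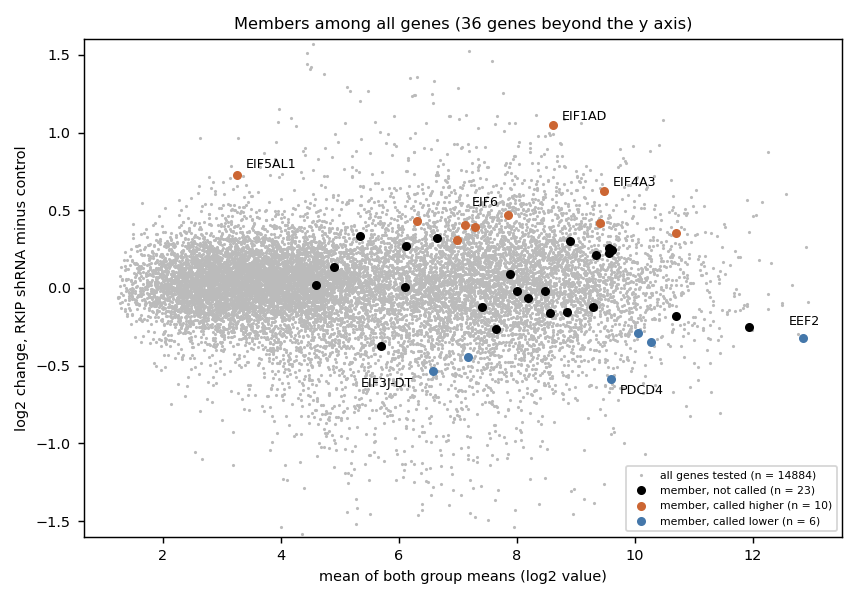
The log2 change (RKIP shRNA minus control) of the 14884 genes tested is plotted against the mean of both group means, with the 39 members in colour by call; 36 genes lie beyond the y axis. The members sit within the cloud of all genes, and EIF5AL1 is the 1 called member at the dim end.

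The start site and ternary complex group held the largest rise, that of EIF1AD, and several falls. EIF1AD was counted in this group by its name, and a part of it in start site choice was not tested. Of 6 measured genes, 2 rose, 3 fell and 1 did not pass, and the groups were apart in all 6, in EIF5 by 0.0001. The called share was 83.3%, beside 20.2% of all genes and 29.2% of those at or above the median of all rows. Groups were apart in 37.9% and 51.5% of those genes, respectively. EIF1AD, whose product carries an eIF1A-like domain but is not eIF1A itself, read 7.76, 8.25 and 8.24 in control and 9.11, 9.21 and 9.07 in RKIP shRNA arrays. The control array with the low value, replicate 1, widened the control spread, yet every RKIP shRNA array lay at least 0.826 above every control array. EIF1AD rose by 1.05 (SE 0.14, adjusted p = 0.00296), or 2.07-fold, and ranked 170 of all genes by the size of its change. EIF5B, the GTPase of subunit joining, read 9.19, 9.21 and 9.20 in control and 9.61, 9.59 and 9.66 in RKIP shRNA arrays. Its arrays were tightly grouped, and it rose by 0.42 (SE 0.06, adjusted p = 0.0044). Both rises were called in all 6 fits that left out 1 array.

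The paralogues EIF1 and EIF1B, whose products hold the scanning ribosome until a start codon is found, both fell. EIF1 read 10.34, 10.51 and 10.48 in control and 10.06, 10.09 and 10.14 in RKIP shRNA arrays, a fall by 0.35 (SE 0.07, adjusted p = 0.0174). EIF1B read 7.55, 7.23 and 7.37 in control and 6.89, 7.01 and 6.93 in RKIP shRNA arrays, a fall by 0.44 (SE 0.10, adjusted p = 0.0183). Their groups did not overlap, but each was called in only 3 of the 6 fits on 5 arrays. EIF1 lost it without control replicate 2, control replicate 3 or RKIP shRNA replicate 1 (highest adjusted p 0.066), and EIF1B without control replicate 3 or RKIP shRNA replicate 1 or 3 (highest 0.066). EIF2D, which can place initiator tRNA without eIF2, fell by 0.29 (SE 0.07, adjusted p = 0.0364), from 10.08, 10.24 and 10.25 to 9.95, 9.88 and 9.89. That call held only without control replicate 1, and the adjusted p otherwise reached 0.12. EIF5, the partner that makes eIF2 hydrolyse GTP, had a log2 change of -0.16 (95% interval -0.34 to 0.03) and did not pass.

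Cap, helicase and poly(A) factors were led by a rise of EIF4A3 and a fall of PDCD4. Of 11 measured genes 3 rose, 1 fell and 7 did not pass, with a median log2 change of 0.02. Thus 36.4% were called, beside 20.2% of all genes and 29.2% of those at or above the median of all rows. EIF4A3, a helicase of the exon junction complex and a relative of the initiation helicase, read 9.24, 9.17 and 9.05 in control and 9.79, 9.67 and 9.87 in RKIP shRNA arrays. It rose by 0.62 (SE 0.09, adjusted p = 0.00335), or 1.54-fold, and was called whichever array was left out. PDCD4, which binds eIF4A and blocks its helicase activity, read 9.89, 9.88 and 9.89 in control and 9.29, 9.12 and 9.49 in RKIP shRNA arrays. The control arrays were nearly equal while the RKIP shRNA arrays spread over 0.37, and the groups stayed apart. PDCD4 fell by 0.59 (SE 0.10, adjusted p = 0.0076), to 66.6% of the control level (95% interval 56.4% to 78.6%).

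Among the cap-binding genes EIF4E and EIF4E2 rose, and EIF4E3 did not pass. EIF4E read 6.81, 6.88 and 6.80 in control and 7.23, 7.05 and 7.12 in RKIP shRNA arrays, and rose by 0.31 (SE 0.07, adjusted p = 0.0285). This call held only without RKIP shRNA replicate 2, and otherwise the adjusted p reached 0.093. EIF4E2, a cap-binding protein that does not bind eIF4G and represses translation, read 7.06, 7.14 and 7.08 in control and 7.55, 7.37 and 7.55 in RKIP shRNA arrays. It rose by 0.39 (SE 0.08, adjusted p = 0.0127) and kept its call in all 6 such fits, the highest adjusted p being 0.0499. EIF4E3, another family member, had a log2 change of -0.38 (95% interval -0.66 to -0.09, adjusted p = 0.0735). It did not pass, although its groups did not overlap, and it passed without control replicate 3. The difference between the changes of EIF4E and EIF4E3 was not tested. EIF4E1B, a mostly germline relative, had a change of 0.02 with overlapping groups, and EIF4ENIF1, the transporter that carries eIF4E into the nucleus, one of 0.09.

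The helicase cofactors EIF4B and EIF4H had log2 changes of -0.18 and 0.23 (adjusted p = 0.122 and 0.065), so neither passed. A second EIF4B probe gave -0.19. PAIP1, which stimulates translation through poly(A)-binding protein, had a change of -0.07, and PAIP2, which inhibits that protein, one of -0.02, and both missed the threshold. The probes of PAIP2 disagreed: the one not kept read 6.22 in control and 6.68 in RKIP shRNA cells, a change of 0.47 (SE 0.14) with an adjusted p of 0.0589 over all named probes. PAIP2B, the paralogue of PAIP2 and no member by the rule, fell by 1.07 (SE 0.14, adjusted p = 0.00318).

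**Figure D3:**
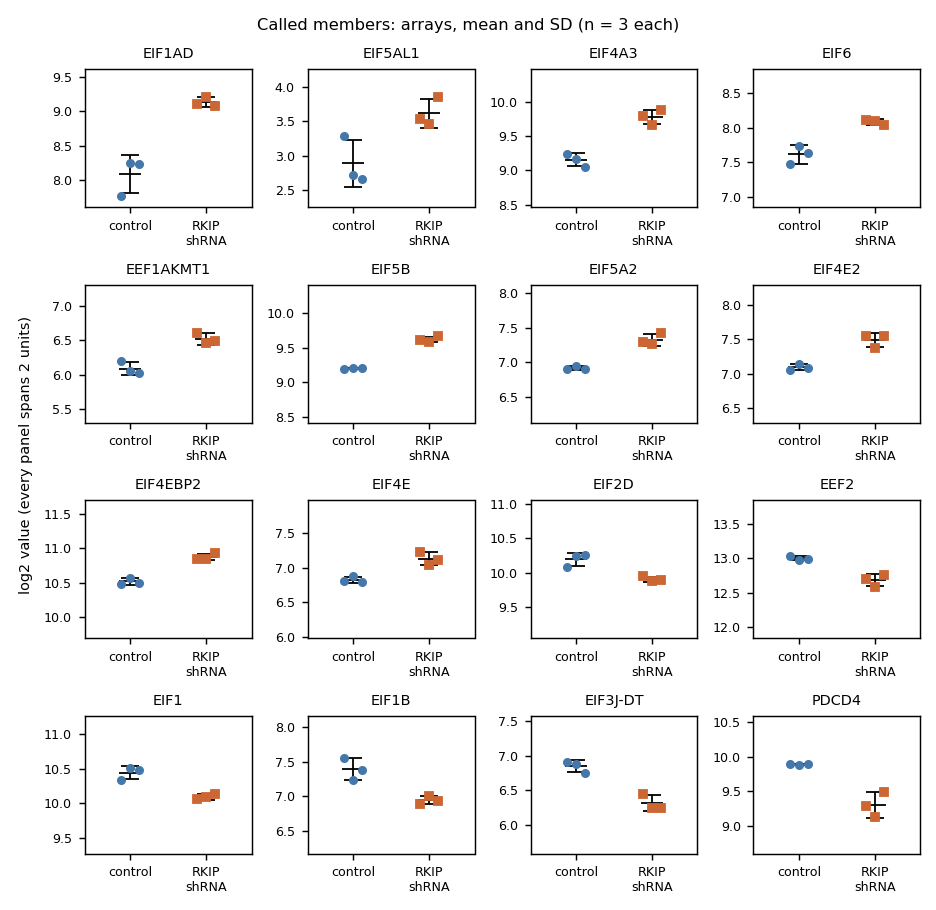
Log2 values of the 16 called members, the 10 higher and the 6 lower, in control (circles) and RKIP shRNA arrays (squares), with the group mean and SD (n = 3 each); every panel spans 2 log2 units. In each panel the groups are apart, and the widest control spreads are those of EIF5AL1 and EIF1AD, with SDs of 0.34 and 0.28.

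Promoters of the members were searched because MYC, which binds the E-box CACGTG, is known to act on EIF4E. Of the 39 members, 33 had a promoter in the RefSeq table (GRCh38.p14, 250 bases before to 50 after the start). The E-box, which reads the same on both strands, occurred in 10 of these 33, or 30.3%, beside 9.0% of 10749 promoters of tested genes and 7.3% of all 35116 promoters. It occurred in 3 of 9 promoters of members called higher, 1 of 6 of those called lower and 6 of 18 of those not called. The motif TGATGNAA, the core of the C/EBP-ATF response element, was searched on both strands and occurred in 0 of 33 member promoters, beside 2.2% of those of tested genes. Of the members called, EIF4E, EIF5A2, EIF4A3 and EIF1B held an E-box. Their 250 bases before the start are printed from 5′ to 3′ on the strand of the gene, with each E-box in capitals, to show where the letters lie. They come from chr4:98929134-98929383 (minus strand), chr3:170908638-170908887 (minus), chr17:80147129-80147378 (minus) and chr3:40309457-40309706 (plus), in that order.
EIF4E: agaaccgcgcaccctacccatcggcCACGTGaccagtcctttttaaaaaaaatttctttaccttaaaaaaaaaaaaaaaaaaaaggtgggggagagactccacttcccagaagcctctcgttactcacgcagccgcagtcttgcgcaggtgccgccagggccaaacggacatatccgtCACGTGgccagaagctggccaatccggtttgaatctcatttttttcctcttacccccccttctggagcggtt
EIF5A2: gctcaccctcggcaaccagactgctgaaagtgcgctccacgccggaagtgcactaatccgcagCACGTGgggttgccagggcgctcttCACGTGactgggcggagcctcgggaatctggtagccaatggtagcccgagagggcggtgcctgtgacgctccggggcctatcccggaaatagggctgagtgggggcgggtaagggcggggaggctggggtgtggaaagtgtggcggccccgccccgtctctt
EIF4A3: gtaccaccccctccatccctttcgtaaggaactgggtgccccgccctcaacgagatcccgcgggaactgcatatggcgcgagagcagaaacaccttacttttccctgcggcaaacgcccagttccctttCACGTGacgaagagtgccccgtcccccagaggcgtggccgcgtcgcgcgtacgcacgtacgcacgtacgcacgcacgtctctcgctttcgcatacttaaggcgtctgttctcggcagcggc
EIF1B: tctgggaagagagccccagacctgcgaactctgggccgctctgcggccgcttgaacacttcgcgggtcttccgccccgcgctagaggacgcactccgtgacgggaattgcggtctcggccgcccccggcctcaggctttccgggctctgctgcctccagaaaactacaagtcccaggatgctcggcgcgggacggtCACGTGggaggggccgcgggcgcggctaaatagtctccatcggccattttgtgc

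In the EIF4E promoter the E-boxes began 225 and 72 bases before the start, and in that of EIF5A2 187 and 162 bases before it. EIF4A3 and EIF1B each held 1, at 121 and 54 bases before the start. The first 3 of these genes rose and EIF1B fell, by the values given beside each gene. The matches are letters in a window and show no binding.

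In the EIF5A and EIF6 group 3 of 4 measured genes rose, 0 fell and EIF5A itself did not pass. This made 75% higher, beside 10.0% of all genes and 14.5% of those at or above the median of all rows. The 3 include EIF5AL1, which was dim, so the last share is not a like comparison. EIF5A and EIF5A2 encode the factor that helps stalled ribosomes form peptide bonds and that carries hypusine, an amino acid made from spermidine. EIF5A2 read 6.90, 6.95 and 6.90 in control and 7.29, 7.26 and 7.42 in RKIP shRNA arrays, and rose by 0.40 (SE 0.07, adjusted p = 0.0084). EIF5A read 6.08, 6.01 and 5.86 in control and 6.34, 6.17 and 6.26 in RKIP shRNA arrays, a change of 0.27 (95% interval 0.06 to 0.47, adjusted p = 0.0718). Its groups did not overlap. EIF5AL1, an intronless near copy of EIF5A, rose by 0.73 (SE 0.19, adjusted p = 0.034) but was dim in both groups, at 2.89 and 3.61. Its call held only without control replicate 1, with an adjusted p of up to 0.11 otherwise, and its signal cannot be assigned to it apart from EIF5A. EIF6, which keeps the large subunit from joining too early, read 7.47, 7.74 and 7.64 in control and 8.11, 8.10 and 8.04 in RKIP shRNA arrays. It rose by 0.47 (SE 0.09, adjusted p = 0.00951), or 1.38-fold, and was called in all 6 fits with 1 array left out.

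The enzymes that make hypusine went opposite ways, and neither is a member. DOHH, which completes the modification, rose by 0.71 (SE 0.12, adjusted p = 0.0074), also with any 1 array left out. DHPS, which starts it, fell by 0.37 (SE 0.10, adjusted p = 0.0381), a call lost whichever array was left out, with adjusted p-values from 0.0501 to 0.10.

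Of 5 measured elongation factor genes 0 rose, EEF2 fell and 4 did not pass. The called share, 20.0%, was near the 20.2% of all genes, and 29.2% of those at or above the median of all rows were called. EEF2, the translocase, read 13.03, 12.98 and 12.99 in control and 12.70, 12.59 and 12.76 in RKIP shRNA arrays. It fell by 0.32 (SE 0.07, adjusted p = 0.0205), and its groups did not overlap. That call held only without RKIP shRNA replicate 3, with adjusted p-values up to 0.065 otherwise. These log2 values lie near the top of the range of the table, 13.997. EEF1G, a subunit of the exchange complex of eEF1A, had a change of -0.25 (95% interval -0.48 to -0.02, adjusted p = 0.128), and its second probe one of -0.06. EEF1D, another subunit, had a change of 0.32 (adjusted p = 0.0938) with groups that did not overlap.

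The eEF1A genes themselves varied widely between arrays of the same group. EEF1A1 read 8.51, 8.76 and 8.98 in control and 8.94, 8.93 and 9.28 in RKIP shRNA arrays, and EEF1A2 read 4.92, 5.19 and 5.42 against 5.43, 5.22 and 5.87. In both genes control replicate 1 was the lowest of the 6 arrays and RKIP shRNA replicate 3 the highest, and the groups overlapped. Their changes of 0.30 and 0.33 (adjusted p = 0.216 and 0.285) did not pass. EEF1A1 has many processed copies in the genome and a close paralogue in EEF1A2. Whether these signals are shared was not tested.

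Among 4 elongation factor modifiers 1 rose, or 25%, beside 10.0% of all genes and 14.5% of those at or above the median of all rows. EEF1AKMT1, a lysine methyltransferase of eEF1A, read 6.20, 6.05 and 6.02 in control and 6.61, 6.45 and 6.49 in RKIP shRNA arrays, and rose by 0.43 (SE 0.08, adjusted p = 0.0107) in every fit that left out 1 array. EEF1AKMT2 and EEF1AKMT3, which methylate other lysines, had changes of -0.16 and 0.0035 and did not pass. EEF2K, the kinase that inactivates eEF2, had a change of -0.02 (95% interval -0.17 to 0.14) with overlapping groups. The termination factor gene GSPT1, which encodes the GTPase eRF3a, read 9.41, 9.54 and 9.52 in control and 9.82, 9.75 and 9.63 in RKIP shRNA arrays. Its change of 0.24 (adjusted p = 0.076) did not pass, though its groups did not overlap. Its paralogue GSPT2 was dim in both groups, with a change of -0.01.

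Of the 2 names that encode no single factor, EIF3J-DT fell. This RNA, transcribed away from the start of the eIF3 subunit gene EIF3J, read 6.91, 6.88 and 6.75 in control and 6.45, 6.25 and 6.25 in RKIP shRNA arrays. It fell by 0.54 (SE 0.09, adjusted p = 0.00592) in every fit that left out 1 array, while EIF3J itself was not analysed here. EEF1AKMT4-ECE2 had a change of 0.13 and did not pass.

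**Figure D4:**
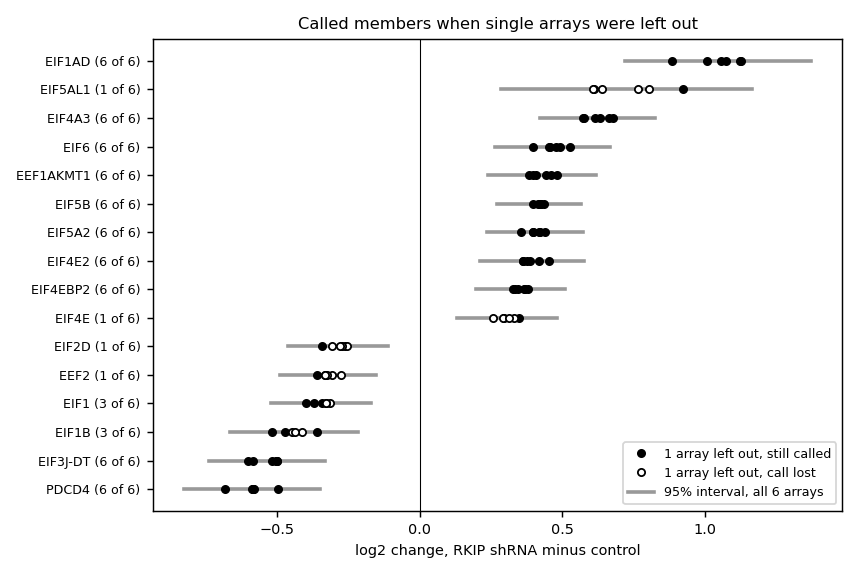
The log2 change of the 16 called members is shown with all 6 arrays (bar, 95% interval) and when each array was left out in turn (points; open where the adjusted p reached 0.05). The 7 rises of EIF1AD, EIF4A3, EIF6, EEF1AKMT1, EIF5B, EIF5A2 and EIF4E2, and that of EIF4EBP2, keep filled points throughout, as do PDCD4 and EIF3J-DT, whereas EIF4E, EIF5AL1, EIF2D and EEF2 each keep 1 filled point.

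Of the genes set apart, only EIF4EBP2 passed, 1 of 6, or 16.7%, near the 20.2% of all genes. Of genes at or above the median of all rows 29.2% were called. EIF4EBP2, which sequesters eIF4E until mTOR phosphorylates it, read 10.48, 10.57 and 10.50 in control and 10.84, 10.85 and 10.92 in RKIP shRNA arrays. It rose by 0.35 (SE 0.07, adjusted p = 0.0107) in every fit with 1 array left out. EIF4EBP1 read 9.28, 9.53 and 9.49 in control and 9.78, 9.49 and 9.80 in RKIP shRNA arrays. Its groups overlapped through RKIP shRNA replicate 2, and its change of 0.26 (95% interval -0.01 to 0.52, adjusted p = 0.171) did not pass. Of the EIF2 kinases, 0 of 4 passed in limma at an adjusted p under 0.05, and 2 had an unadjusted p under 0.05, as did 32.3% of all genes. These were EIF2AK1, the haem-regulated kinase, with a change of 0.21 (adjusted p = 0.0692), and EIF2AK4, the amino acid sensor GCN2, with a change of -0.26 (adjusted p = 0.059). EIF2AK2, the double-stranded RNA sensor PKR, and EIF2AK3, the endoplasmic reticulum kinase PERK, had changes of -0.12 and -0.12, with 95% intervals from -0.30 to 0.05 and from -0.30 to 0.06. With a trended and robust prior 4 of the 6 genes were called, and with dim genes left out 3.

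Genes of the signalling that acts on these factors were given by lists. For mTORC1 and cap-binding signalling 16 of 22 were measured, and for the response to eIF2 phosphorylation 8 of 17. The lists were chosen with earlier results of these data known, so their called shares only describe the genes chosen. In the mTORC1 list 5 rose, 2 fell and 9 did not pass, with a median log2 change of 0.17. The called share was 43.8%, beside 20.2% of all genes and 29.2% of those at or above the median of all rows. DEPTOR, an inhibitor bound to mTOR, read 6.88 ± 0.05 in control and 5.63 ± 0.04 in RKIP shRNA cells (log2, SD, n = 3 each), a fall by 1.25 (SE 0.07, adjusted p = 0.000174). TSC1, part of the complex that holds the mTORC1 activator RHEB inactive, fell by 0.46 (SE 0.06, adjusted p = 0.00298). RHEB rose by 0.55 (SE 0.08, adjusted p = 0.00518). MKNK2, a kinase of eIF4E, rose by 0.49 and NPRL3, a subunit of a complex that restrains mTORC1, by 0.45. All 5 of these kept their call whichever array was left out. TSC2, of the same complex as TSC1, had a change of 0.16 (limma adjusted p = 0.139) and did not pass. NPRL2 and DEPDC5, of the same complex as NPRL3, had changes of 0.09 and 0.19 (limma adjusted p = 0.563 and 0.0809). Neither passed. MTOR at 0.28 and AKT1S1, another mTORC1 inhibitor, at 0.40 also rose, but each held in 2 of 6 such fits, with adjusted p-values up to 0.090 and 0.075.

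The list of the response to eIF2 phosphorylation also holds GCN1 and IMPACT, which act on the kinase GCN2. Its counts are therefore not of response genes alone. In it 1 gene, GCN1, rose, 5 fell, IMPACT among them, and 2 did not pass, with a median of -0.28. That is 75% called, beside 20.2% of all genes and 29.2% of those at or above the median of all rows. This list too was chosen with earlier results of these data known, so its share only describes the genes chosen. The transcription factor gene ATF4 had a change of -0.28 with an adjusted p of 0.0507 and did not pass. Its target TRIB3 fell by 1.31 (SE 0.06), DDIT3 by 0.61 and ASNS, asparagine synthetase, by 0.52, each also with any 1 array left out. ATF3 fell by 0.29 and IMPACT, an inhibitor of GCN2, by 0.25, each called in 1 of 6 fits with 1 array left out (adjusted p up to 0.095 and 0.11). The call of ATF3 was also lost with quantile normalisation (limma adjusted p = 0.0641) and that of IMPACT with median centring (0.051). GCN1, which GCN2 needs to sense uncharged tRNA, rose by 0.35 (SE 0.06, adjusted p = 0.00936), also with any 1 array left out.

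**Figure D5:**
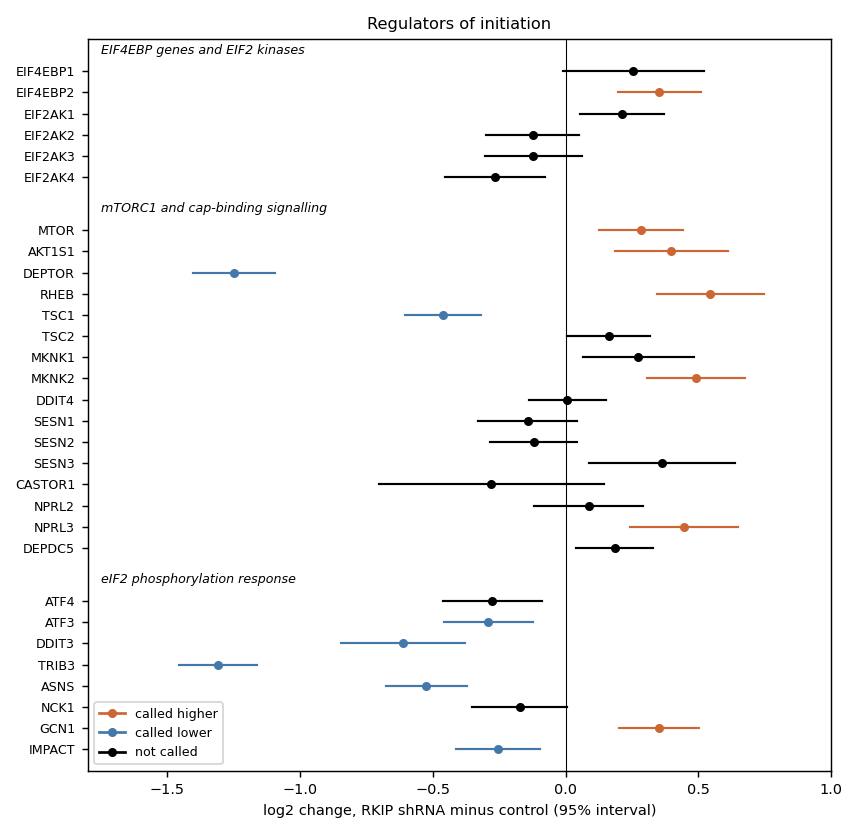
Log2 changes (RKIP shRNA minus control) with 95% intervals for the 6 genes set apart and for the measured genes of the mTORC1 and eIF2 phosphorylation lists, coloured by call at an adjusted p under 0.05. DEPTOR and TRIB3 lie farthest to the left, at -1.25 and -1.31, and all intervals of the EIF2 kinases lie within 0.5 of 0.

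Of 14 measured other initiation, rescue and recycling genes (21 listed) 3 rose and 3 fell. The called share was 42.9%, beside 20.2% of all genes and 29.2% of those at or above the median of all rows. Besides DOHH, DHPS and PAIP2B, the genes called were DPH2, DHX29 and GTPBP2. DPH2, an enzyme of the diphthamide modification of eEF2, rose by 0.80 (SE 0.07, adjusted p = 0.000813). DHX29, a helicase that helps scanning through structured leaders, rose by 0.36 (SE 0.06, adjusted p = 0.00891). Both kept their call in all 6 fits with 1 array left out. GTPBP2, a ribosome rescue factor, fell by 0.30, a call held in 2 of 6 such fits (adjusted p up to 0.085). The median of this list was -0.03. Of 7 measured mitochondrial translation factors (11 listed) 2 fell and 0 rose, with a median of 0.02. The called share, 28.6%, was near the 29.2% of genes at or above the median of all rows, beside 20.2% of all genes. MTRF1, a release factor, fell by 0.39 (SE 0.07, adjusted p = 0.0101), also with any 1 array left out, and MTIF2, the initiation factor, by 0.25 (adjusted p = 0.0391), a call held in 1 of 6 and lost with median centring (0.0624). Over the 45 genes of the 4 lists, 20.0% were higher and 26.7% lower, beside the 10.0% and 10.2% of all genes. Only 1 of these 45 was dim in control cells. Among genes at or above the median of all rows 14.5% were higher and 14.6% lower. The lists were chosen with earlier results of these data known, and no test set them against other genes. The lower count of 12 became 7 without control replicate 3 and 7 without RKIP shRNA replicate 1.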

How the data were processed

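Total RNA was labelled (250 ng per array) and hybridised to 6 arrays, per the labels. The authors deposited 1 table of 53617 rows and 6 columns, whose values are log2 expression, as read from their range (0.72 to 13.997). How they were summarised and normalised, and on which build, is not given in the sources used here. The array annotation gave exactly 1 symbol to 16098 rows. Each of 14884 genes was represented by its probe of highest 6-array mean, which mattered for 3 members. All genes were fitted together in limma 3.58.1 (lmFit, then eBayes; R 4.3.3; RKIP shRNA minus control, 7.01 total degrees of freedom), adjusted by Benjamini-Hochberg over all genes. Genes with an adjusted p under 0.05 were called. Intervals are 95% limits of that fit, and the number of arrays limits the precision. The members and lists were chosen with earlier results of these data known. Named were all called members, all EIF2 kinase and EIF4EBP genes, PEBP1, the called genes of the 4 lists and, in each role group, the uncalled member of largest change. Other members, ATF4, TSC2, NPRL2, DEPDC5 and genes of the closing section were named outside this rule. The 13 planned paralogue pairs were to be compared by protein identity, which was not done here, and 9 pairs with both genes measured are given by their changes. The fit was tested on simulated arrays. Alternatives were median centring, quantile normalisation, a robust trended prior, a replicate block, dropping dim genes, the mean of a gene's probes, array weights, each array left out, and an adjusted p under 0.01. Figures were drawn with matplotlib 3.10.9.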

Additional observations from a re-analysis of the deposited data

How the results depend on the processing

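No called gene reversed under any alternative. The count of higher translation factor names, 9, ranged from 7 to 8 with 1 array left out and was 5 at an adjusted p under 0.01. It was 7 with the replicate block, 10 with quantile normalisation and 11 with array weights. With a trended and robust prior it was 12, as with dim genes left out. The lower count, 6, ranged from 2 to 5 with 1 array left out. It was 10 with a trended and robust prior, 3 with the replicate block and 2 at an adjusted p under 0.01. Over all genes 1495 were higher, 1953 with the trended and robust prior and 1033 with the replicate block. For lower calls over all genes these counts were 1515, 1916 and 1109. The call of 1 gene among those set apart became 2 with quantile normalisation, 4 with the trended and robust prior, 3 with dim genes left out, 2 with array weights and 0 at an adjusted p under 0.01. The 12 lower genes of the other lists ranged from 7 to 11 with 1 array left out, and were 7 with the replicate block and 6 at an adjusted p under 0.01. Deviations of same-numbered arrays correlated at 0.019, 0.003 and -0.016 across all genes. These values show no pairing common to all genes and cannot exclude 1 that acts on some genes. Under the block EEF2, EIF1B, EIF2D, EIF4E and EIF5AL1 lost their calls among the members. Among the other lists MTOR, ATF3, IMPACT, GTPBP2, DHPS and MTIF2 lost theirs. Reversals concerned uncalled genes near 0. With 1 array left out, the log2 change ranged from -0.074 to 0.066 for EEF1AKMT3, from -0.082 to 0.200 for EIF4E1B and from -0.052 to 0.022 for PAIP2. EIF4E1B gave -0.0088 with array weights, and PAIP2 gave 0.22 as the mean of its probes. The cause of these differences was not tested. The normalisations moved the median change of all genes by 0.0036 and 0.0086. Dim values such as those of EIF5AL1 limit what can be read.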

Other observations

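Some members start close to a neighbour transcribed the other way, as read from the RefSeq promoter table after the values had been seen. The start of EIF1AD lies 346 bases from that of BANF1, which encodes a chromatin-binding protein of the nuclear envelope. BANF1 had a log2 change of 0.31 (SE 0.10, adjusted p = 0.0716 in limma) beside 1.05 for EIF1AD. It did not pass; with single arrays left out it passed only without control replicate 1 (adjusted p = 0.0203). The start of EIF4E2 lies 132 bases from that of TIGD1, which fell by 0.58 (SE 0.15, adjusted p = 0.0304) while EIF4E2 rose by 0.39. The call of TIGD1 held in 2 of 6 fits with 1 array left out, with adjusted p-values up to 0.099. EIF1B, which fell by 0.44, starts 9 bases from EIF1B-AS1, whose change was -0.03. The differences between these neighbours were not tested.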
